A study of Mus musculus with 18 samples.

Results

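The 976 genes described here are those whose response to an antibody against Tim-4 differed between Tim-4low and Tim-4high peritoneal macrophages of tumor-bearing mice. Bulk RNA sequencing covered macrophages sorted from the peritoneal cavity, and the series has 18 libraries, of which 12 came from mice with MC38-LG tumor cells in that cavity. MC38 is a mouse colon carcinoma line. The 12 libraries form 4 groups of 3: Tim-4low macrophages with anti-Tim-4, Tim-4low macrophages with isotype antibody, Tim-4high macrophages with anti-Tim-4, and Tim-4high macrophages with isotype antibody. All 4 groups carried the tumor, anti-Tim-4 was given on day 7 after tumor challenge, and cells were collected on day 10. No day is stated for the isotype antibody, and the strain, sex and age of the mice were not stated in the labels. The 6 libraries of mice with neither tumor nor antibody, 3 of Tim-4low and 3 of Tim-4high macrophages, serve only as a separate readout. The title of the series links such Tim-4+ macrophages to CD8+ T cell immunity against tumors.

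For every gene the antibody change is the log2 ratio of anti-Tim-4 over isotype within 1 population. The genes were taken from 1 contrast, the antibody change in Tim-4low minus that in Tim-4high, which is called the difference below. A positive difference means that the antibody change was higher in Tim-4low macrophages. Of 23511 genes in the table, 15724 had enough counts to be tested, and edgeR's quasi-likelihood test with Benjamini-Hochberg adjustment gave 976 genes an adjusted p under 0.05, which is 6.21% of those tested. The difference was positive for 490 genes (3.12%) and negative for 486 (3.09%). Protein-coding genes made up 466 of the 490 and 439 of the 486. Just inside the threshold lay Angptl8 (adjusted p = 0.0494), Matk (0.0494) and Lap3 (0.0497), and just outside it lay Arhgef18 and Zfp326 (0.0501 each) and Elmod2 (0.0501).

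Tim-4, encoded by Timd4, is a receptor for phosphatidylserine, the lipid that dying cells expose, and it marks long-lived resident macrophages. Large peritoneal macrophages of the mouse depend on the transcription factor GATA6 and on retinoic acid and carry much F4/80 (Adgre1) and ICAM2. Smaller peritoneal macrophages renew from blood monocytes through CCR2 and carry more MHC class II. A further resident program, seen in the omentum and other tissues, includes LYVE1, CD163, the folate receptor FOLR2 and the mannose receptor CD206 (Mrc1).

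The genes fell into 2 mirrored patterns. Genes with a positive difference were lower with anti-Tim-4 in Tim-4high macrophages, with a median antibody change of -0.50, and slightly higher in Tim-4low macrophages, with a median of 0.29. They include coagulation factor V (F5), the retinoic acid receptor gene Rarb and other genes of large peritoneal macrophages. Genes with a negative difference showed the opposite, with a median antibody change of 0.52 in Tim-4high and -0.25 in Tim-4low macrophages. They include Mrc1, Folr2, Stab1, Apoe, Trem2 and Pdcd1lg2.

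**Figure D1:**
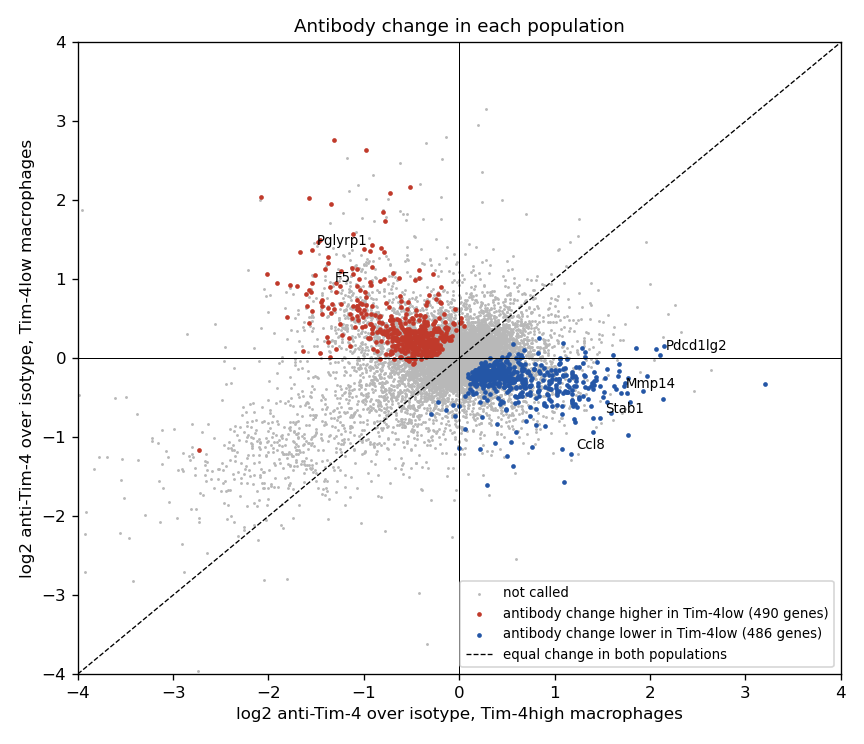
Each point is a gene tested, with its antibody change (log2) in Tim-4low macrophages on the y axis and in Tim-4high macrophages on the x axis, and the dashed line marks an equal change. The 490 red genes lie above the line and mostly left of 0, the 486 blue genes lie below it and mostly right of 0, and 7 genes lie outside the plotted range.

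The larger part of the difference lay in Tim-4high macrophages. In the antibody change of Tim-4high macrophages, 356 of the 490 genes with a positive difference were called lower, beside 6.39% of all genes tested, and 362 of the 486 with a negative difference were called higher, beside 6.94% (13.3% either way). In Tim-4low macrophages 24 of the 490 were called higher, beside 0.426% of all genes, and 18 of the 486 were called lower, beside 0.464% (0.89% either way). The libraries of the 2 antibodies did not overlap in Tim-4high macrophages for 461 of the 490 and 458 of the 486 genes, and in Tim-4low macrophages for 185 and 228. Of the 14748 genes not called, 37% did not overlap in Tim-4high and 17% in Tim-4low macrophages. These contrasts are the terms of the difference that chose the genes, so the counts describe where the difference lay and are no separate evidence for it.

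Isotype-treated Tim-4high macrophages were the group farthest from the other 3 for most genes, 367 of the 490 (74.9%) and 358 of the 486 (73.7%). They were also the most frequent farthest group among genes not called (38.3%). Isotype-treated Tim-4low macrophages stood farthest for 101 and 83 genes, beside 26.7% of genes not called. Anti-Tim-4-treated Tim-4high macrophages did so for 20 and 36, beside 21.9%, and anti-Tim-4-treated Tim-4low macrophages for 2 and 9, beside 13.1%. The group means are those that chose the genes, so these counts only describe the genes.

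Read the other way round, the median ratio of the populations lay near 0 with anti-Tim-4 and away from 0 with isotype. The log2 ratio of Tim-4low over Tim-4high had a median of 0.00 with anti-Tim-4 and -0.82 with isotype for the genes with a positive difference, and of 0.00 with anti-Tim-4 and 0.75 with isotype for those with a negative one. With anti-Tim-4, 9 of the 490 genes were higher in Tim-4low by the test and 5 lower, and 17 of the 486 genes were higher and 23 lower, beside 2.91% of all genes (1.2% higher and 1.7% lower). With isotype, 471 of the 490 were called lower in Tim-4low, beside 15.4% of all genes, and 444 of the 486 were called higher, beside 15.3% (30.7% either way). The population comparisons use the same 12 libraries as the difference.

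Libraries that share a number deviated together across the populations within an antibody group, so the ratio of the populations could also be taken within each pair. All 3 anti-Tim-4 pairs had a higher ratio than all 3 isotype pairs in 490 of the 490 genes with a positive difference, and all 3 had a lower ratio in 485 of the 486 genes with a negative one. Of the 14748 genes not called, all 3 anti-Tim-4 pairs were higher in 16.3% and all 3 lower in 17.4%. The pairs hold the same 12 libraries that chose the genes, so the separation of the called genes follows from the choice. It is given as a description. For genes with a positive difference the median ratio was 0.04, 0.00 and -0.08 in anti-Tim-4 pairs 1, 2 and 3, and -0.82, -0.81 and -0.74 in isotype pairs 1, 2 and 3. For genes with a negative difference it was -0.09, 0.01 and 0.07 in anti-Tim-4 pairs, and 0.85, 0.66 and 0.70 in isotype pairs.

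**Figure D2:**
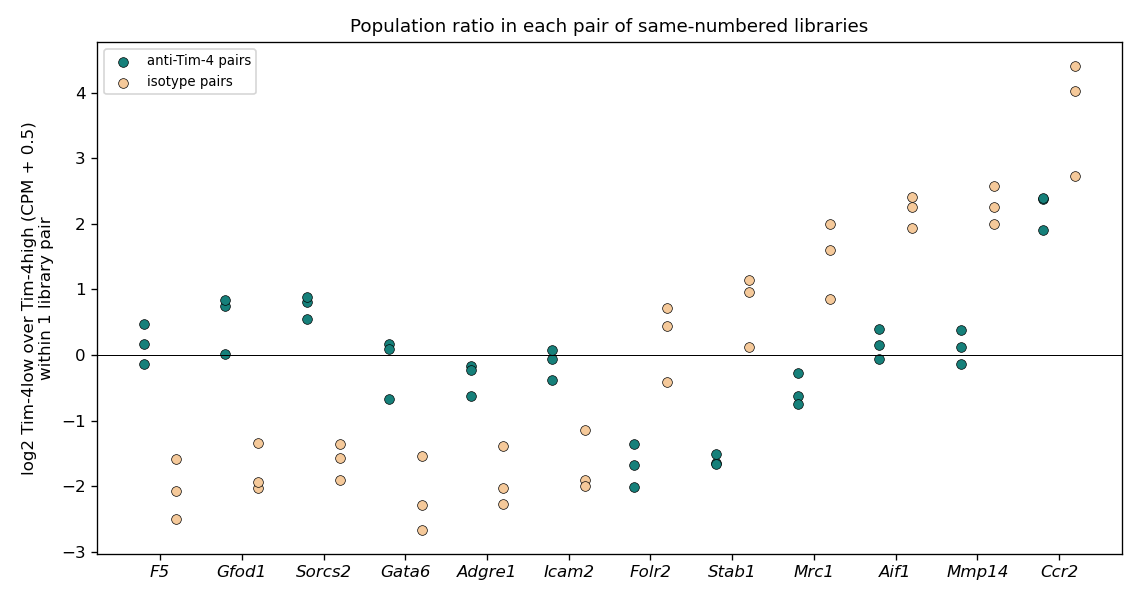
The y axis gives the log2 ratio of Tim-4low over Tim-4high, on CPM with 0.5 added, within 1 pair of same-numbered libraries, with 3 anti-Tim-4 pairs (dark) left of 3 isotype pairs (light) for each gene. Gata6, Adgre1, Icam2 and Ccr2 did not pass the test of the difference without a block on the pair, and the other 8 genes did.

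A fit with a block on the library pair called 3233 genes, 1647 with a positive and 1586 with a negative difference (20.6% of those tested), and these include all 976. Without the block the count depended on single libraries. It was 0 without Tim-4low isotype library 2, without Tim-4high anti-Tim-4 library 2 or without Tim-4high anti-Tim-4 library 3, where edgeR still gave 2979, 3343 and 3011 genes an unadjusted p under 0.05. It was 24 without Tim-4high isotype library 1, 184 without Tim-4low isotype library 1, 251 and 597 without Tim-4low anti-Tim-4 libraries 1 and 2, 347 without Tim-4high isotype library 3, and 2318 without Tim-4low anti-Tim-4 library 3. With the block, leaving out any 1 pair left 2046 to 3174 calls, which held 92.9% to 98.6% of the 976. Of the 103 genes that the naming rule took, 92 were called, all 92 passed with the block, and none passed in every omission of a single library. No omission turned the direction of any of the 92. With all 18 libraries in 1 fit 43 of the 92 passed and 49 did not. Of those 49, 23 had an adjusted p of 0.0504 to 0.0924, and the values of the others, up to 0.898, stand beside the genes reported.

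Library totals lay between 26886142 and 34110392 estimated counts, and levels are given in CPM, that is counts scaled to TMM library sizes. The labels do not tell whether each library is a separate animal, and the p-values cover a spread between libraries that may be technical in origin. Timd4 itself checked the sort, with 28.2, 22.6 and 11.6 CPM in Tim-4low and 212, 168 and 164 CPM in Tim-4high macrophages with anti-Tim-4. With isotype it was at 14.2, 10.7 and 74.4 CPM in Tim-4low and 311, 286 and 273 CPM in Tim-4high macrophages. Its difference was 0.01 ± 0.80 (adjusted p = 0.997), so Timd4 is not among the 976 genes. Without Tim-4low isotype library 3, the highest Timd4 of that population, it was 1.42 (adjusted p = 0.0396). This was the only 1 of 12 omissions of a single library in which Timd4 passed. The 12 markers of macrophage identity reached a sum of 18300 to 21400 CPM in Tim-4low macrophages and of 20800 to 21700 CPM in Tim-4high macrophages with anti-Tim-4, and of 18400 to 19600 CPM (Tim-4low) and 22100 to 23200 CPM (Tim-4high) with isotype. The 21 T and NK cell markers summed to 42.4 to 57.5 CPM (Tim-4low) and 33.3 to 37.8 CPM (Tim-4high) with anti-Tim-4, and to 50.9 to 256 CPM (Tim-4low) and 35.4 to 234 CPM (Tim-4high) with isotype, the highest values being those of isotype library 3 in each population. The same isotype libraries were highest for neutrophil markers, with a sum of 449 CPM (Tim-4low) and 439 CPM (Tim-4high), against 105 to 138 CPM in the other isotype libraries. They were also highest for B cell markers, at 102 CPM (Tim-4low) and 93.3 CPM (Tim-4high) against 26.1 to 36.4 CPM. For mesothelial and fibroblast markers they held 80.3 CPM (Tim-4low) and 46.9 CPM (Tim-4high) against 10.3 to 40.6 CPM. In Tim-4high macrophages all isotype libraries lay above all anti-Tim-4 libraries for the neutrophil, B cell and mesothelial sums. The lowest isotype sums there were 119, 28 and 10.3 CPM, and the highest anti-Tim-4 sums were 90, 25.1 and 6.95 CPM. In Tim-4low macrophages the antibody groups overlapped, with anti-Tim-4 sums of 105 to 159, 21.8 to 31.9 and 16.9 to 27.2 CPM. No T and NK, B, plasma, neutrophil, mast or mesothelial marker was among the 976 genes. Of 3 plasma cell markers 1 had a difference above 0 (median -0.07). In the other lists most had a difference above 0. This held for 20 of 21 T and NK markers (median 0.55), 14 of 14 neutrophil markers (0.95), 5 of 5 mast cell markers (1.55), 12 of 13 mesothelial and fibroblast markers (0.94) and 8 of 12 B cell markers (0.23). Without isotype pair 3 these medians were 0.27, 1.06, 1.47, 0.66 and -0.02, and 760 genes were called, 406 with a positive and 354 with a negative difference, of which 588 were among the 976. The part of these cells in the results was not tested. In bulk samples, fewer cells of a type and less RNA per cell cannot be told apart.

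The called genes of large resident peritoneal macrophages all had a positive difference. Of 28 such genes tested, 6 were called with a positive and 0 with a negative difference, beside 3.12% and 3.09% of all genes tested. The median over the list was 1.16, against -0.01 over all genes tested. The 6 were F5, Rarb, Lbp, Laptm5, Naip1 and F10. With the block on the pair 22 of the 28 were called, all positive, beside 10.5% of all genes, and the median was 1.15. Leaving out single libraries or pairs gave medians of 0.96 to 1.43, with 0 to 21 calls, and 0 without Tim-4low isotype library 2, Tim-4high anti-Tim-4 libraries 2 or 3, Tim-4high isotype library 1, anti-Tim-4 pair 2, or isotype pairs 1 or 2.

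F5 encodes coagulation factor V and is a marker of large peritoneal macrophages (chr1:164151838-164220277, plus strand). It was at 1221, 687 and 389 CPM in Tim-4low macrophages with anti-Tim-4 and 426, 265 and 539 CPM with isotype. In the Tim-4high population it was at 873, 610.5 and 428 CPM with anti-Tim-4 and 1791, 1498 and 1613 CPM with isotype. The isotype Tim-4high libraries stood above all others, and the 2 antibody groups of Tim-4low macrophages overlapped. The antibody change of F5 was 0.90 ± 0.37 in Tim-4low and -1.36 ± 0.38 in Tim-4high macrophages, a difference of 2.26 ± 0.53 (adjusted p = 0.0335).

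Rarb, a receptor for retinoic acid, was at 18.3, 15.6 and 11.5 CPM with anti-Tim-4 and 11.5, 9.02 and 13.03 CPM with isotype in Tim-4low macrophages. Tim-4high macrophages held 18.2, 15.5 and 11.6 CPM with anti-Tim-4 and 28.03, 30.9 and 27.6 CPM with isotype. Under anti-Tim-4 each pair of same-numbered libraries was thus nearly equal, and its difference was 1.37 ± 0.27 (adjusted p = 0.0223). Lbp, the plasma protein that presents bacterial lipopolysaccharide, differed by 1.21 ± 0.26 (adjusted p = 0.026), with 243, 246 and 193 CPM with anti-Tim-4 and 436, 358 and 422 CPM with isotype in Tim-4high macrophages. The lysosomal membrane protein gene Laptm5 differed by 0.96 ± 0.19, the inflammasome receptor gene Naip1, which has near-identical copies, by 0.89 ± 0.18, and coagulation factor X (F10) by 0.61 ± 0.14.

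Gata6, Adgre1 and Icam2 had differences of a like size and did not pass the test. Gata6 was at 108, 80.6 and 26.5 CPM with anti-Tim-4 and 41.7, 25.3 and 68.8 CPM with isotype in Tim-4low macrophages, and at 95.8, 75.1 and 42.5 CPM with anti-Tim-4 and 206, 164 and 201 CPM with isotype in Tim-4high macrophages. Its difference was 2.08 ± 0.65 (adjusted p = 0.0759, 0.000549 with the block). In both populations anti-Tim-4 library 3 held the lowest Gata6 of its group, and in Tim-4low macrophages isotype library 3 held the highest. Adgre1 differed by 1.56 ± 0.49 (adjusted p = 0.0763, 0.000433 with the block), and Icam2 by 1.53 ± 0.45 (adjusted p = 0.0632, 0.0004 with the block). Without anti-Tim-4 Tim-4low library 3 the adjusted p was 0.0097 for Gata6, 0.0103 for Adgre1 and 0.0126 for Icam2, and all 3 also passed without isotype Tim-4low library 3 (0.0378, 0.0388 and 0.0238). These were the only 2 of 12 omissions of a single library in which each passed. Over the 12, the adjusted p rose to 0.1995 for Gata6, 0.1976 for Adgre1 and 0.1634 for Icam2.

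**Figure D3:**
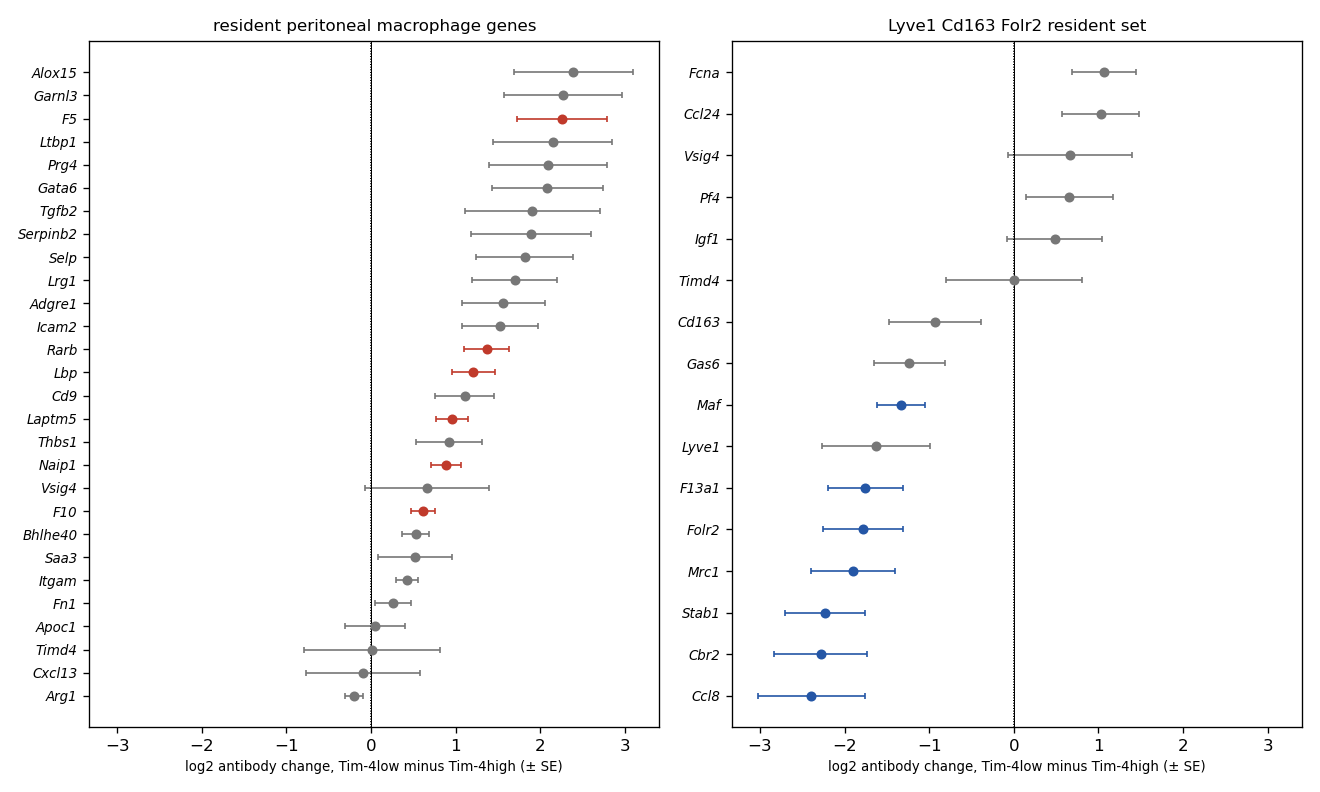
Difference in antibody change (log2, Tim-4low minus Tim-4high) with its standard error for each tested gene of 2 resident macrophage lists, where red and blue mark called genes, gray those not called, and the dotted line the median of all genes tested. Of 28 genes of large peritoneal macrophages 26 lie above 0, and of 16 genes of the Lyve1, Cd163 and Folr2 set 10 lie below 0.

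The window from 250 bases before to 50 bases after the start of F5 is shown because F5 led the resident genes. In it 1 match to AGGTCA, the half-site bound by retinoic acid receptors and other nuclear receptors, was found on the minus strand and is in capitals. The sequence is that of RefSeq on GRCm38.p6, the mm10 build (chr1:164151585-164151884, plus strand).
F5: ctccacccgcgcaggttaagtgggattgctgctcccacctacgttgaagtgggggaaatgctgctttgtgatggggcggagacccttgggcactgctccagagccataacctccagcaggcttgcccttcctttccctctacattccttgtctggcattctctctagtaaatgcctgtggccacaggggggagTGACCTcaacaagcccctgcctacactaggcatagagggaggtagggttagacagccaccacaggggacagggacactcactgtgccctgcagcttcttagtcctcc
AGGTCA or its reverse complement lay in 12.6% of the 364 promoters of genes with a positive difference that RefSeq gave, in 11.8% of the 364 of genes with a negative one, and in 12.2% of 10331 promoters of genes tested. The GATA factor motif, AGATAA, searched on both strands, lay in 8.52%, 7.14% and 6.72% of the same promoters. A match describes letters and is not a bound site.

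The largest positive differences among genes with at least 10 CPM in a group had the same form as F5. The 15 were Hhipl1, Pglyrp1, Rflnb, Strip2, Shank3, Gfod1, Sorcs2, Bcam, Proser2, Pi16, Kif7, F5, Pde10a, Adgre4 and Slco2a1, with differences of 2.14 to 2.96. In all 15 the Tim-4high libraries with anti-Tim-4 lay below those with isotype without overlap, while the Tim-4low libraries of the 2 antibodies overlapped.

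Pglyrp1 encodes a secreted protein that binds bacterial peptidoglycan. It was at 67.4, 62.5 and 16.5 CPM with anti-Tim-4 and 13.97, 11.7 and 30.7 CPM with isotype in Tim-4low macrophages. In Tim-4high macrophages it was at 28.8, 20.6 and 14.8 CPM with anti-Tim-4 and 69.2, 57.7 and 60.5 CPM with isotype, and the difference was 2.92 ± 0.67 (adjusted p = 0.0309). With anti-Tim-4, libraries 1 and 2 of Tim-4low macrophages thus stood as high as isotype Tim-4high libraries, and library 3 stood with isotype Tim-4low libraries.

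Gfod1 had the smallest adjusted p of the 15, shared with Sorcs2. It was at 23.7, 22.7 and 10.7 CPM with anti-Tim-4 and 10.1, 8.9 and 12.3 CPM with isotype in Tim-4low macrophages, and at 13.9, 12.5 and 10.6 CPM with anti-Tim-4 and 42.5, 35.3 and 32.01 CPM with isotype in Tim-4high macrophages. The difference was 2.44 ± 0.36 (adjusted p = 0.0174). Sorcs2, a receptor of the sortilin family, differed by 2.42 ± 0.39 (adjusted p = 0.0174), with 17.9, 16.3 and 10.4 CPM with anti-Tim-4 and 51.2, 40.8 and 43.5 CPM with isotype in Tim-4high macrophages.

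The other genes of the 15 follow with their differences. Bcam, a laminin receptor, was at 97.7, 73.6 and 29.4 CPM with anti-Tim-4 and 26.7, 18.3 and 31.8 CPM with isotype in Tim-4low macrophages, against 55.03, 37.5 and 26.5 CPM with anti-Tim-4 and 89.9, 71.2 and 76.8 CPM with isotype in Tim-4high macrophages (difference 2.39 ± 0.53). Adgre4, an adhesion receptor related to F4/80, differed by 2.16 ± 0.44, and the prostaglandin transporter gene Slco2a1 by 2.14 ± 0.50. The cyclic nucleotide phosphodiesterase gene Pde10a differed by 2.17 ± 0.49, the kinesin gene Kif7 of the Hedgehog pathway by 2.26 ± 0.46, and the scaffold gene Shank3, known from synapses, by 2.53 ± 0.63. Pi16, named as a peptidase inhibitor, differed by 2.34 ± 0.57, Hhipl1, a relative of the Hedgehog-binding protein HHIP, by 2.96 ± 0.60, the actin regulator gene Rflnb by 2.61 ± 0.65, Strip2 by 2.58 ± 0.63 and Proser2 by 2.39 ± 0.61. Rflnb and Slco2a1 did not pass with all 18 libraries in the fit, at adjusted p = 0.109 and 0.215.

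Adhesion and lysosome genes had calls in both directions, where 3.12% of all genes tested were called positive and 3.09% negative. Of 27 adhesion and migration genes, 4 were called with a positive difference (Itga6 at 1.93, Itgb1 at 1.06, Selplg at 0.85 and Itgb2 at 0.54) and 4 with a negative one (among them F11r at -1.86, Cx3cr1 at -1.53 and Cd44 at -0.60), with a median of 0.28. Selplg, the selectin ligand PSGL-1, was at 646, 568 and 540.2 CPM with anti-Tim-4 and 872, 778 and 1025 CPM with isotype in Tim-4high macrophages. Of 38 lysosome genes, 5 had a positive difference (Gaa, Ctsd, Naglu, Man2b1 and Grn, 0.47 to 1.02) and 3 a negative one (Ctsc, Ctss and Lgmn, -1.05 to -0.54), with a median of -0.02. Gaa, the acid glucosidase that breaks down glycogen, was at 219, 196 and 169 CPM with anti-Tim-4 and 329, 292 and 315 CPM with isotype in Tim-4high macrophages. Cathepsin C (Ctsc), which activates serine proteases, was there at 2070.0, 2145 and 2226 CPM with anti-Tim-4 and 1221, 1593 and 1185 CPM with isotype, so the groups were separate in opposite directions.

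Complement genes also had calls in both directions, beside 3.12% positive and 3.09% negative calls over all genes tested. Of 20 tested, 16 had a difference above 0, and 3 were called with a positive difference, the protease gene C1ra (0.90, adjusted p = 0.461 with all 18 libraries), properdin (Cfp, 0.97) and the regulator gene Cr1l (0.37). The receptors of the fragments C3a and C5a were called with a negative one, C3ar1 at -0.86 ± 0.18 and C5ar1 at -0.66 ± 0.14 (adjusted p = 0.0254 and 0.0265), and the list's median was 0.40. C5ar1 was at 259.8, 330.2 and 333 CPM with anti-Tim-4 and 390.1, 400.0 and 387 CPM with isotype in Tim-4low macrophages. In the Tim-4high population it was at 306, 343 and 367 CPM with anti-Tim-4 and 261, 299 and 262 CPM with isotype, so neither pair of groups overlapped.

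The called genes of the Lyve1, Cd163 and Folr2 set all had a negative difference. Of 16 genes tested, 7 were called with a negative and 0 with a positive difference, beside 3.09% and 3.12% of all genes tested, and the median was -1.28. The 7 were Ccl8, Cbr2, Stab1, Mrc1, Folr2, F13a1 and Maf. With the block 10 were called negative, beside 10.1% of all genes, and 2 positive, beside 10.5%, with a median of -1.35. Over the omissions of single libraries or pairs the median was -1.70 to -1.08, with 10 negative calls without Tim-4high isotype library 2. It had 0 without Tim-4low isotype libraries 1 or 2, Tim-4high anti-Tim-4 libraries 2 or 3, Tim-4high isotype library 1, anti-Tim-4 pair 2 or isotype pair 1. In the same list 6 genes lay above 0 and did not pass without the block, among them Fcna, Ccl24, Vsig4, Pf4 and Igf1.

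Stab1 encodes stabilin-1, a scavenger and phosphatidylserine receptor (chr14:31139013-31168641, minus strand). It was at 207, 295 and 367 CPM with anti-Tim-4 and 528, 557 and 378 CPM with isotype in Tim-4low macrophages. Tim-4high macrophages held 649, 936 and 1045 CPM with anti-Tim-4 and 237, 511 and 194 CPM with isotype. Neither population's groups overlapped, the antibody change was -0.75 ± 0.33 in Tim-4low and 1.48 ± 0.34 in Tim-4high, and the difference was -2.23 ± 0.47 (adjusted p = 0.026).

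Folr2, folate receptor beta, was at 34.3, 58.9 and 76.7 CPM with anti-Tim-4 and 88.5, 84.9 and 63.7 CPM with isotype in Tim-4low macrophages. In Tim-4high macrophages it was at 139.8, 188 and 198 CPM with anti-Tim-4 and 54.00, 113 and 46.6 CPM with isotype, and the difference was -1.78 ± 0.47 (adjusted p = 0.0466, 0.112 with all 18 libraries). With anti-Tim-4 the Tim-4high libraries stood above all other groups, and among isotype Tim-4high libraries number 2 stood highest. Mrc1 was at 292, 316 and 489 CPM with anti-Tim-4 and 486, 505 and 293 CPM with isotype in Tim-4low macrophages, and at 452, 531 and 590.2 CPM with anti-Tim-4 and 122, 278 and 96.2 CPM with isotype in Tim-4high macrophages. Here isotype Tim-4high libraries were low and the other 3 groups overlapped, with a difference of -1.90 ± 0.50 (adjusted p = 0.0456).

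Ccl8 encodes a chemokine of resident macrophages, and Cbr2 a carbonyl reductase. Ccl8 was at 2.02, 5.03 and 3.97 CPM with anti-Tim-4 and 8.7, 10.2 and 6.53 CPM with isotype in Tim-4low macrophages, and at 65.7, 119 and 84.7 CPM with anti-Tim-4 and 32.1, 68.7 and 18.3 CPM with isotype in Tim-4high macrophages. Its difference of -2.39 ± 0.63 (adjusted p = 0.0466) came with an antibody change of -1.22 in Tim-4low. Cbr2 differed by -2.28 ± 0.55 (adjusted p = 0.0358). F13a1, the A chain of coagulation factor XIII, was at 85.8, 172 and 155 CPM with anti-Tim-4 and 251, 247 and 249 CPM with isotype in Tim-4low macrophages, and differed by -1.75 ± 0.44 (adjusted p = 0.041, 0.111 with all 18 libraries). The transcription factor gene Maf differed by -1.33 ± 0.28 (adjusted p = 0.0261).

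Lyve1 and Cd163 themselves did not pass. Lyve1, a hyaluronan receptor, was at 10.6, 19.6 and 27.4 CPM with anti-Tim-4 and 36.5, 39.05 and 27.01 CPM with isotype in Tim-4low macrophages, and at 149.6, 268 and 251 CPM with anti-Tim-4 and 83.4, 236 and 66.2 CPM with isotype in Tim-4high macrophages. Its difference was -1.63 ± 0.64 (adjusted p = 0.141, 0.00232 with the block). The hemoglobin scavenger receptor gene Cd163 differed by -0.93 ± 0.54 (adjusted p = 0.327, 0.0331 with the block). Both were higher in isotype Tim-4high library 2 than in isotype Tim-4high libraries 1 and 3, at 85.9, 219 and 60.8 CPM for Cd163 in libraries 1, 2 and 3. Without library 2 the difference was -2.41 for Lyve1 (adjusted p = 0.0203) and -1.67 for Cd163 (adjusted p = 0.0184). For both genes this was the only 1 of 12 omissions of a single library that passed. The adjusted p rose to 0.3004 for Lyve1 and 0.5149 for Cd163 over the 12.

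**Figure D4:**
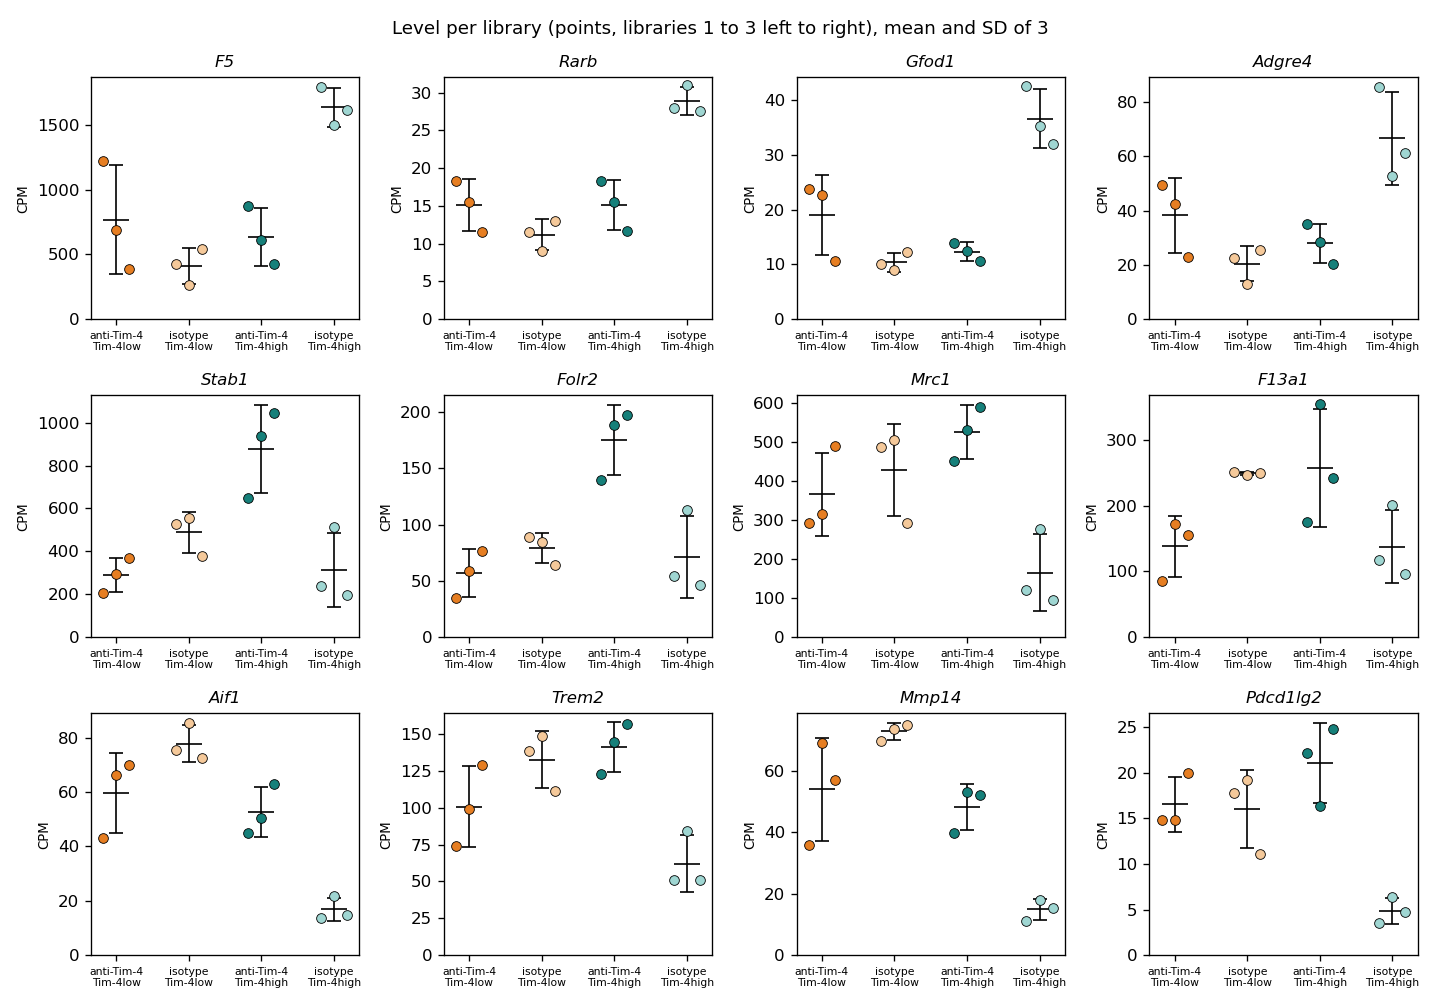
CPM of 12 genes in each of the 12 libraries (points, libraries 1 to 3 from left to right), with the mean and SD of each group of 3. In F5, Rarb, Gfod1 and Adgre4 the isotype Tim-4high libraries stand highest, and in Aif1, Mmp14 and Pdcd1lg2 they stand lowest. In Trem2 the isotype Tim-4high group has the lowest mean. Its highest library, at 84.6 CPM, lies above the lowest anti-Tim-4 Tim-4low library, at 73.8 CPM.

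The promoters of Mrc1 and F13a1 are shown as 2 genes of the set that moved together. The capitals mark GAGGAAG, the core of the motif of the macrophage factor PU.1, or its reverse complement, with 2 matches in each. The windows are chr2:14229164-14229463, plus strand, for Mrc1 and chr13:37050195-37050494, minus strand, for F13a1, both RefSeq on GRCm38.p6 and read along the gene.
Mrc1: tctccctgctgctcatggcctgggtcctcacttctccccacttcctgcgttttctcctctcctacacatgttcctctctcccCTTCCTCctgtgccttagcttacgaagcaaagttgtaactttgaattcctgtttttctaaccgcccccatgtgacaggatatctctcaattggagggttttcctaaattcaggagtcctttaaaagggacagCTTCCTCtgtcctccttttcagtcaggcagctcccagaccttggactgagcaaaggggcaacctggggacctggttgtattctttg
F13a1: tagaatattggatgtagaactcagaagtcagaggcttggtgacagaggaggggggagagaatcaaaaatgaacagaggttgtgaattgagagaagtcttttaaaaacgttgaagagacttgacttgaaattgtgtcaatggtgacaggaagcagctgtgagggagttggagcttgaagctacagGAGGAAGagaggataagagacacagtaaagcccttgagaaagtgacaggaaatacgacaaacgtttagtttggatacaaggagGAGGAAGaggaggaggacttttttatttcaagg
GAGGAAG lay in 21.2% of the promoters of genes with a negative difference, in 13.7% of those with a positive one, and in 13.8% of all promoters of genes tested. TGANTCA, the motif of AP-1 factors, lay in 9.07%, 4.12% and 5.02% in the same order. Both were searched on both strands, and these shares were not tested.

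Called genes of recruited macrophages and monocytes also had a negative difference, and of these Mrc1 and F13a1 were counted in the Lyve1, Cd163 and Folr2 set too. Of 20 genes of small or recruited macrophages, 4 were called negative (Mrc1, Aif1, Plbd1 and Cx3cr1) and 0 positive, with a median of -0.07. Over all genes tested 3.09% were called negative and 3.12% positive. Of 15 monocyte markers tested, 3 were called negative (F13a1, S100a4 and Vcan), with a median of -0.26, and these 15 markers summed to 25700 to 34200 CPM (Tim-4low) and 30100 to 36500 CPM (Tim-4high) with anti-Tim-4, and to 22700 to 26800 CPM (Tim-4low) and 35200 to 35800 CPM (Tim-4high) with isotype. Fibronectin (Fn1), which resident peritoneal macrophages also express, held 75.7% of that sum. Ccr2 had a difference of -1.35 ± 0.42 (adjusted p = 0.0761, 0.0105 with the block), and the adjusted p was 0.0372 without anti-Tim-4 Tim-4low library 3 and 0.0251 without isotype Tim-4high library 3. It passed in only these 2 of 12 omissions of a single library, and its adjusted p rose to 0.1833 over the 12.

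Aif1, the calcium-binding protein IBA1 of macrophages, was at 42.9, 66.2 and 69.7 CPM with anti-Tim-4 and 75.5, 85.3 and 72.6 CPM with isotype in Tim-4low macrophages. In the Tim-4high population it was at 44.7, 50.5 and 62.8 CPM with anti-Tim-4 and 13.8, 21.8 and 14.8 CPM with isotype. The isotype Tim-4high libraries stood below all others, and the difference was -2.03 ± 0.29 (adjusted p = 0.0174). S100a4, a calcium-binding protein of monocytes, differed by -1.64 ± 0.24 (adjusted p = 0.0174), with 126, 138 and 169 CPM with anti-Tim-4 and 52.3, 70.8 and 66.8 CPM with isotype in Tim-4high macrophages.

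Cx3cr1, the fractalkine receptor, took more of its difference from Tim-4low macrophages. It was at 9.49, 14.3 and 16.9 CPM with anti-Tim-4 and 25.1, 27.5 and 25.4 CPM with isotype there, and at 6.16, 7.92 and 8.03 CPM with anti-Tim-4 and 4.33, 4.26 and 6.1 CPM with isotype in Tim-4high macrophages. The antibody change was -0.94 ± 0.19 in Tim-4low and 0.59 ± 0.21 in Tim-4high, and the difference -1.53 ± 0.28 (adjusted p = 0.0199, 0.389 with all 18 libraries). Plbd1, which encodes a phospholipase-like protein, differed by -1.55 ± 0.34 (adjusted p = 0.0277), and the proteoglycan gene Vcan by -1.15 ± 0.24 (adjusted p = 0.0259, 0.212 with all 18 libraries).

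Several receptor genes had a negative difference as well. Ltb4r1, the high-affinity leukotriene B4 receptor, was at 64.1, 101 and 120.3 CPM with anti-Tim-4 and 126, 149 and 128 CPM with isotype in Tim-4low macrophages, against 47.4, 56.02 and 79.8 CPM with anti-Tim-4 and 12.8, 24.4 and 27.2 CPM with isotype in Tim-4high macrophages (difference -2.01 ± 0.40). F11r, the junctional adhesion molecule JAM-A, differed by -1.86 ± 0.29. Flt1, a receptor of vascular endothelial growth factor, was at 67.2, 61.2 and 74.2 CPM with anti-Tim-4 and 17.8, 29.2 and 18.9 CPM with isotype in Tim-4high macrophages and differed by -1.97 ± 0.25 (adjusted p = 0.0174, 0.382 with all 18 libraries). Gpr141, an orphan receptor, was there at 22.7, 20.7 and 30.9 CPM with anti-Tim-4 and 3.32, 4.4 and 9.06 CPM with isotype and differed by -2.0 ± 0.42 (adjusted p = 0.0259, 0.146 with all 18 libraries).

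The 15 largest negative differences also included Ms4a4a (-1.97), a membrane protein gene with near-identical copies, and 3 genes that build or modify glycans. Those were Ggta1 (-2.08), the enzyme that makes the alpha-gal epitope, B3gnt7 (-2.33), which extends glycan chains, and Chst1 (-1.99), a sulfotransferase. Ggta1 was at 36.7, 47.7 and 49.4 CPM with anti-Tim-4 and 8.06, 19.3 and 12.8 CPM with isotype in Tim-4high macrophages, without overlap, and its Tim-4low groups overlapped.

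Receptors for antibody had a negative difference where called. Of 11 Fc receptor and antibody-sensing genes tested, 3 were called negative and 0 positive, beside 3.09% and 3.12% of all genes tested, with a median of 0.00. Fcgr1, the high-affinity receptor for IgG, was at 202, 288 and 307 CPM with anti-Tim-4 and 329.6, 393 and 370.0 CPM with isotype in Tim-4low macrophages. Tim-4high macrophages held 205, 220.2 and 236 CPM with anti-Tim-4 and 128, 157 and 138 CPM with isotype, a difference of -1.10 ± 0.19 (adjusted p = 0.019, 0.149 with all 18 libraries) with no overlap in either population. The inhibitory receptor gene Fcgr2b was at 857, 942 and 958 CPM with anti-Tim-4 and 548, 658 and 545 CPM with isotype in Tim-4high macrophages and differed by -0.81 ± 0.13 (adjusted p = 0.0174). Fcgrt, the neonatal Fc receptor that recycles IgG, was there at 244, 249.9 and 266 CPM with anti-Tim-4 and 149, 178 and 155 CPM with isotype and differed by -0.64 ± 0.15 (adjusted p = 0.0306). Fc receptor genes share sequence, so their counts are uncertain.

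Genes for lipid transport and for binding dying cells were split, and the larger differences were negative. Over all genes tested 3.12% were called positive and 3.09% negative. Of 28 lipid genes, 3 were called negative (Apoe, Trem2 and Pltp) and 2 positive, the cholesterol exporter gene Abcg1 (0.51) and the lipoprotein receptor gene Scarb1 (0.29, adjusted p = 0.27 with all 18 libraries), with a median of -0.13. Apoe, the apolipoprotein of cholesterol efflux, was at 1028, 1489 and 1995 CPM with anti-Tim-4 and 2240.0, 2110.0 and 1978 CPM with isotype in Tim-4low macrophages. In Tim-4high macrophages it was at 2200.0, 2622 and 2860.0 CPM with anti-Tim-4 and 937, 1286 and 984 CPM with isotype, with a difference of -1.75 ± 0.29 (adjusted p = 0.0174). With isotype, Tim-4low libraries were above Tim-4high libraries, and with anti-Tim-4 they were below.

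Trem2, a lipid-sensing receptor of macrophages, was at 73.8, 99.4 and 129 CPM with anti-Tim-4 and 138, 148 and 111 CPM with isotype in Tim-4low macrophages, and at 123, 145 and 157 CPM with anti-Tim-4 and 50.98, 84.6 and 50.8 CPM with isotype in Tim-4high macrophages. Its difference was -1.58 ± 0.32 (adjusted p = 0.0235), and that of the phospholipid transfer protein gene Pltp was -1.50 ± 0.31 (adjusted p = 0.0245). The Trem2 promoter is shown because it held 1 match each, in capitals, to the nuclear receptor half-site and the PU.1 core, both on the minus strand, and to the AP-1 motif given above. It lies at chr17:48346151-48346450, plus strand, in RefSeq on GRCm38.p6.
Trem2: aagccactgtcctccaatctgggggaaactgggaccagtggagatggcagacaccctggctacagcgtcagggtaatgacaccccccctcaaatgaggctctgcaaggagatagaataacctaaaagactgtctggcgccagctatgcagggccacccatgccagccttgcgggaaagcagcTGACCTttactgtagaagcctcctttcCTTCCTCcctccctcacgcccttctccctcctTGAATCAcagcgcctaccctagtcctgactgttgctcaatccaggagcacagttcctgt

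Of 25 genes for phosphatidylserine binding and engulfment, 3 were called negative (Stab1, Anxa5 and the integrin gene Itgb5 at -1.46) and 3 positive, the bridging protein gene Pros1 at 0.82, Cd300lb and Elmo1. The median was 0.01, and 3.09% of all genes tested were called negative and 3.12% positive. Anxa5, a phosphatidylserine-binding annexin, was at 115, 165 and 219 CPM with anti-Tim-4 and 193, 214 and 182 CPM with isotype in Tim-4low macrophages, against 132, 161 and 186 CPM with anti-Tim-4 and 44.97, 78.8 and 53.01 CPM with isotype in Tim-4high macrophages. Its difference was -1.68 ± 0.33 (adjusted p = 0.0223). Elmo1, an activator of Rac in engulfment, was at 70.8, 67.3 and 69.4 CPM with anti-Tim-4 and 70.4, 69.4 and 68.8 CPM with isotype in Tim-4low macrophages, against 69.3, 66.9 and 64.5 CPM with anti-Tim-4 and 92.96, 88.7 and 84.2 CPM with isotype in Tim-4high macrophages (difference 0.40 ± 0.08). Cd300lb, an activating receptor of myeloid cells, differed in the other population, with 109.6, 99.3 and 114 CPM with anti-Tim-4 and 79.1, 78.4 and 77.5 CPM with isotype in Tim-4low macrophages. Its antibody change was 0.46 ± 0.06 in Tim-4low and 0.02 ± 0.06 in Tim-4high, and the difference 0.44 ± 0.08 (adjusted p = 0.0215).

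Matrix genes that were called had a negative difference, 5 of 26 tested, beside 3.09% of all genes tested, with a median of 0.12 over the list. Mmp14, a membrane collagenase, was at 35.8, 68.8 and 56.96 CPM with anti-Tim-4 and 69.7, 73.6 and 74.8 CPM with isotype in Tim-4low macrophages. In the Tim-4high population it was at 39.6, 52.9 and 52.2 CPM with anti-Tim-4 and 11.2, 18.1 and 15.2 CPM with isotype, without overlap in either population, and the difference was -2.13 ± 0.31 (adjusted p = 0.0174). Tgfbi, a matrix protein induced by TGF-beta, differed by -1.34 ± 0.27, the collagenase gene Mmp13 by -1.36 ± 0.35, and Vcan as given above. Timp1, an inhibitor of such proteases, had its lowest group mean in Tim-4low macrophages with anti-Tim-4, at 2.73, 4.11 and 4.23 CPM, against 7, 11.5 and 6.15 CPM with isotype, and its difference was -2.23 ± 0.48 (adjusted p = 0.0264, 0.176 with all 18 libraries).

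Of 26 macrophage transcription factor genes, 4 were called negative (Maf, Batf3, Irf8 and Irf5) and 2 positive (Id2 at 0.82 and Nfe2 at 0.49), with a median of 0.03. Calls over all genes tested were 3.09% negative and 3.12% positive. Irf8, which directs monocyte and dendritic cell fate, was at 193, 237 and 308 CPM with anti-Tim-4 and 309.5, 354 and 328 CPM with isotype in Tim-4low macrophages. Tim-4high macrophages held 244, 263 and 324 CPM with anti-Tim-4 and 126, 179 and 164 CPM with isotype, with no overlap in either population and a difference of -1.25 ± 0.24 (adjusted p = 0.0221). Irf5 differed by -0.56 ± 0.12 (adjusted p = 0.0287). Batf3, needed by cross-presenting dendritic cells, was at 5.6, 4.93 and 6.93 CPM with anti-Tim-4 and 2.02, 1.97 and 3.03 CPM with isotype in Tim-4high macrophages and differed by -1.30 ± 0.29 (adjusted p = 0.0275).

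Batf3 is also a dendritic cell marker, as is Cd24a, which encodes a surface glycoprotein found on many cells. Of 16 dendritic cell markers Cd24a had a positive difference of 1.66 ± 0.36 (adjusted p = 0.0264, 0.182 with all 18 libraries), Batf3 a negative one, and the others were not called. Calls over all genes tested were 3.12% positive and 3.09% negative. Of the 16, 14 had a difference above 0, with a median of 0.82. The 16 summed to 356 to 590 CPM (Tim-4low) and 370 to 466 CPM (Tim-4high) with anti-Tim-4, and to 392 to 654 CPM (Tim-4low) and 853 to 1090 CPM (Tim-4high) with isotype. With isotype, library 3 held the highest sum in each population. Cd24a held 71.4% of the sum. The defining markers Xcr1, Clec9a and Siglech stayed at or under 3.97 CPM in every library. For markers of activated dendritic cells the highest isotype value lay above those with anti-Tim-4. The lowest isotype value lay within the anti-Tim-4 range in Tim-4low macrophages. In Tim-4high macrophages it lay above the highest anti-Tim-4 value. Fscn1 was at 4.34 to 7.06 CPM (Tim-4low) and 1.63 to 2.97 CPM (Tim-4high) with anti-Tim-4, and at 6.06 to 30.9 CPM (Tim-4low) and 4.65 to 34.1 CPM (Tim-4high) with isotype. Ccr7, Ccl22 and Cacnb3 reached 7.82 CPM at most with anti-Tim-4, against up to 31.4, 24 and 17.9 CPM with isotype. In Tim-4high macrophages their lowest isotype values were 4.26, 3.21 and 2.13 CPM. Their highest anti-Tim-4 values there were 2.44, 1.73 and 1.69 CPM. The part of dendritic cells in the results was not tested.

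Genes of low oxygen and glycolysis were mostly negative where called, 5 of 28 against 1 positive, with a median of -0.12. Over all genes tested the calls were 3.09% negative and 3.12% positive. Hif1a, the oxygen-regulated transcription factor gene, was at 315, 373 and 412 CPM with anti-Tim-4 and 520.2, 500.5 and 442 CPM with isotype in Tim-4low macrophages. In Tim-4high macrophages it was at 304, 333 and 339 CPM with anti-Tim-4 and 234, 264 and 249.6 CPM with isotype, without overlap in either, and the difference was -0.80 ± 0.14 (adjusted p = 0.019). Ndrg1 differed by -1.31 ± 0.28, Bnip3, a mitophagy receptor gene, by -0.97 ± 0.24, and the phosphofructokinase genes Pfkfb3 and Pfkp by -0.76 ± 0.19 and -0.59 ± 0.14 (for Pfkp adjusted p = 0.136 with all 18 libraries). The hexokinase gene Hk1 was the positive one, at 0.29 ± 0.08.

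Among immune checkpoint and adenosine genes 2 of 23 were called, both negative, beside 3.09% of all genes tested, with a median of -0.02. Pdcd1lg2, the PD-1 ligand PD-L2, was at 14.9, 14.8 and 19.99 CPM with anti-Tim-4 and 17.8, 19.2 and 11.1 CPM with isotype in Tim-4low macrophages. In the Tim-4high population it was at 22.1, 16.3 and 24.8 CPM with anti-Tim-4 and 3.54, 6.37 and 4.72 CPM with isotype. The isotype Tim-4high libraries alone stood low, and the difference was -2.06 ± 0.35 (adjusted p = 0.0174, 0.114 with all 18 libraries).

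Cd40, a costimulatory receptor, was at 26.6, 29.8 and 31.1 CPM with anti-Tim-4 and 36.4, 35.9 and 32.8 CPM with isotype in Tim-4low macrophages, and at 29.4, 28.2 and 29.4 CPM with anti-Tim-4 and 17.5, 22.96 and 19.8 CPM with isotype in Tim-4high macrophages, a difference of -0.79 ± 0.13 (adjusted p = 0.0174). Cd274, the other PD-1 ligand, was at 371, 312 and 270.1 CPM with anti-Tim-4 and 367, 369 and 339 CPM with isotype in Tim-4low macrophages, and at 399, 362 and 294 CPM with anti-Tim-4 and 408, 401 and 363 CPM with isotype in Tim-4high macrophages, with a difference of -0.02 ± 0.17 (adjusted p = 0.96). Arg1, the arginase of alternatively activated macrophages, did not pass either, at -0.20 ± 0.11 (adjusted p = 0.273), and the polyamine regulator gene Azin1 was the 1 call of 16 arginine and polyamine genes, at -0.55 ± 0.11. That is 6.25% of the list, beside 6.21% of all genes tested called either way.

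Chemokine genes called were negative, 4 of 24, with a median of -0.10. Over all genes tested 3.09% were called negative and 3.12% positive, which holds beside the interferon lists below too. Besides Ccl8 these were Ccl12 (-1.74 ± 0.37), a monocyte attractant with near-identical relatives, Cxcl16 (-0.84 ± 0.20) and Cxcl9 (-1.15 ± 0.29), which attract T cells. Cxcl9 was at 9.35, 16.5 and 13.9 CPM with anti-Tim-4 and 11.4, 13.1 and 11.7 CPM with isotype in Tim-4low macrophages, against 8.79, 13.1 and 11.8 CPM with anti-Tim-4 and 4.03, 5.6 and 4.19 CPM with isotype in Tim-4high macrophages. Of 25 genes of the interferon-gamma response 2 were positive, Wars at 0.83 and Tgtp1, and 2 negative, Cxcl9 and Irf8. Of 30 type I interferon genes 2 were negative, Ifi44 at -1.37 and Phf11b at -0.45, with medians of 0.02 and 0.05 over these lists. Several of these calls were lost with all 18 libraries in the fit, at adjusted p = 0.723 for Cxcl9, 0.592 for Wars, 0.607 for Ifi44 and 0.509 for Phf11b.

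The MHC class I and class II lists held 1 call each, 5% and 7.69% of their genes, beside 6.21% of all genes tested called either way. Of 20 MHC class I genes H2-Q7, which has near-identical copies, was called positive at 0.49 (adjusted p = 0.608 with all 18 libraries), and of 13 class II presentation genes the protease gene Ctss was called negative at -0.59. H2-Eb1, a class II beta chain, did not pass at -0.32 ± 0.16 (adjusted p = 0.239), nor did the lectin gene Mgl2 at 1.01 ± 0.56 (adjusted p = 0.304, 0.00499 with the block). The medians of these lists were 0.05 and -0.14.

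Single negative calls in other lists were Tlr1 (-1.03) of 21 Toll-like receptor genes, Prdx1 (-0.56) of 19 antioxidant and iron genes, Acod1 (-0.41) of 26 inflammatory genes, Pcna (-0.42) of 38 proliferation genes and Cycs (-0.49) of 35 respiratory chain genes. These are 4.76%, 5.26%, 3.85%, 2.63% and 2.86% of their lists, near the 3.09% of all genes tested, so they describe single genes and not the lists. With all 18 libraries in the fit the adjusted p was 0.898 for Acod1 and 0.186 for Cycs. The 3 calls of 21 alternative activation genes were Mrc1, Folr2 and Pdcd1lg2. None passed among 15 heat shock, 21 unfolded protein response, 13 mitochondrially encoded and 34 cytosolic ribosomal protein genes, whose medians were -0.09, 0.10, -0.09 and 0.20. Of the 12 macrophage identity markers 3 were called negative (25%), beside 3.09% of all genes tested. Those were Aif1, Fcgr1 and C5ar1, given above with other lists. The calls Ear6 (4.07, at most 4.37 CPM, with near-identical copies) of the eosinophil markers and Cdh1 (-1.48) of the tumor epithelial markers were the remaining marker genes. Epithelial Epcam and eosinophil Prg2 were not among the 976.

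A few genes departed from the main forms. In Egr3 and Fosl2, both immediate-early genes, the libraries with anti-Tim-4 lay below those with isotype in both populations. Egr3, a transcription factor gene at low levels, was at 1.41, 1.12 and 1.31 CPM with anti-Tim-4 and 3.19, 2.17 and 3.28 CPM with isotype in Tim-4low macrophages, and at 0.489, 0.635 and 0.497 CPM with anti-Tim-4 and 4.89, 3.2 and 2.73 CPM with isotype in Tim-4high macrophages, with the larger antibody change in Tim-4high (difference 1.56 ± 0.37, adjusted p = 0.0346, 0.424 with all 18 libraries). Fosl2, an AP-1 subunit gene, was at 142, 135 and 145 CPM with anti-Tim-4 and 219, 211 and 191 CPM with isotype in Tim-4low macrophages, and at 129.8, 132 and 134 CPM with anti-Tim-4 and 157, 154 and 152 CPM with isotype in Tim-4high macrophages, with the larger antibody change in Tim-4low (difference -0.34 ± 0.08, adjusted p = 0.0388, 0.413 with all 18 libraries). Of 27 immediate-early genes these were the only calls, 3.7% each way beside 3.12% positive and 3.09% negative of all genes tested, and the list's median was 0.32.

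Tgtp1, an interferon-induced GTPase gene with a near-identical copy, was 1 of the 11 genes whose Tim-4low anti-Tim-4 group stood farthest from the rest. It was at 159, 130.4 and 121 CPM with anti-Tim-4 and 75.9, 74.7 and 101 CPM with isotype in Tim-4low macrophages, and at 106, 90.2 and 86.02 CPM with anti-Tim-4 and 126, 108 and 122 CPM with isotype in Tim-4high macrophages. The libraries with anti-Tim-4 lay above those with isotype in Tim-4low and below them in Tim-4high macrophages, without overlap in either, and the difference was 1.04 ± 0.19 (adjusted p = 0.0194, 0.835 with all 18 libraries). The other 10 included Sapcd2, also positive, and Ccl12, Timp1, Prelid3a, Gpat3, Lgmn and Mmp13, all negative.

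Mice without a tumor gave a readout of these genes that shares no library with the difference. Timd4 was at 113, 10.1 and 9.68 CPM in Tim-4low and 924, 724 and 654 CPM in Tim-4high macrophages there. Tim-4low library 1 thus stood apart from libraries 2 and 3 in the marker of the sort. Library 2 held the highest Cd274, at 68.5 CPM (Tim-4low) and 141 CPM (Tim-4high), against 16.4 to 28.15 CPM in libraries 1 and 3. In a fit of those 6 libraries, 479 of the 490 genes with a positive difference had a value, and 212 of them (44.3%) were called lower in Tim-4low than in Tim-4high macrophages, beside 8.36% of all 15322 genes tested, while 14 were called higher. Of 473 genes with a negative difference and a value, 146 (30.9%) were called higher in Tim-4low macrophages, beside 7.77%, and 14 were called lower (16.1% of all genes were called either way). The median log2 ratio of Tim-4low over Tim-4high was -0.53 and 0.32 for the 2 directions. Most of the genes, 253 and 313, were not called without a tumor. With isotype, 471 of the 490 genes were already called lower in Tim-4low macrophages and 444 of the 486 higher. The shares beside all genes therefore describe a difference between the populations and are no separate evidence for an antibody change.

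Resident genes were among those lower in Tim-4low macrophages without a tumor. F5 was at 807, 639 and 526 CPM in Tim-4low and 2986, 1695 and 1840.0 CPM in Tim-4high macrophages there, a log2 ratio of -1.73 ± 0.27 (adjusted p = 0.00877). The ratio was -1.76 ± 0.20 for Lbp (adjusted p = 0.00342) and -0.80 ± 0.27 for Rarb, which did not pass (adjusted p = 0.1). Among the negative genes, the ratio was 4.10 ± 0.37 for Plbd1 (adjusted p = 0.00202), 5.29 ± 0.62 for Ltb4r1 (adjusted p = 0.00357) and 0.96 ± 0.09 for Hif1a (adjusted p = 0.00224).

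Other genes went another way without a tumor. Stab1 was lower in Tim-4low macrophages, at 95.96, 49.4 and 41.4 CPM against 231, 291 and 346 CPM in Tim-4high macrophages, a ratio of -2.22 ± 0.35 (adjusted p = 0.00871), while with isotype in tumor mice its ratio was 0.64 ± 0.33. Apoe (-0.58 ± 0.37, adjusted p = 0.352), Trem2 (-0.20 ± 0.20, 0.554), Mmp14 (0.60 ± 0.41, 0.386) and Pdcd1lg2 (1.65 ± 0.96, 0.311) did not pass between the populations without a tumor. In isotype-treated tumor mice the ratios were 0.98 ± 0.20, 1.10 ± 0.23, 2.29 ± 0.23 and 1.71 ± 0.26 for the same 4 genes. Whether the ratios with and without a tumor differ was not tested.

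**Figure D5:**
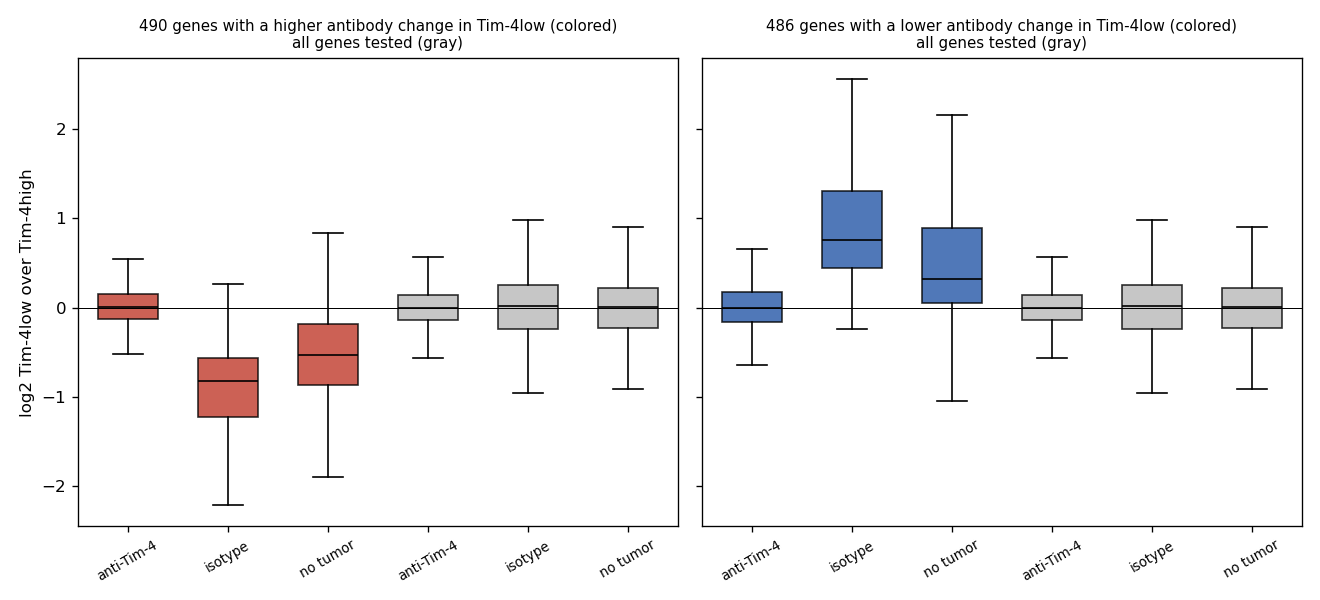
Log2 ratio of Tim-4low over Tim-4high macrophages with anti-Tim-4, with isotype and without a tumor for the 490 genes with a positive difference (left, red), the 486 with a negative one (right, blue) and all genes tested (gray), with the median, the quartiles and whiskers of up to 1.5 times the quartile range. With anti-Tim-4 the medians lie at 0.00, and without a tumor at -0.53 and 0.32.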

How the data were processed

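The authors deposited estimated counts per gene for 18 libraries of sorted peritoneal macrophages, with no normalization. Per the submitters' processing notes STAR, DESeq2 and the mouse build mm10 were used, and no version, quantifier, annotation or strand setting is given in the sources used here. Antisense or overlapping genes and near-identical copies are therefore uncertain. Columns were matched to samples by title, and 0 columns were left unused. Estimated counts were rounded, and filterByExpr kept 15724 of 23511 genes, the rest holding at most 0.0835% of a library. edgeR 4.0.16 (R 4.3.3) fitted the 12 tumor libraries with 1 mean per group and TMM factors (common dispersion 0.0195, 8 residual degrees of freedom), and its quasi-likelihood test was used. A call means a Benjamini-Hochberg adjusted p under 0.05 over all genes tested. The script was tested on simulated data.

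Whether numbers pair libraries was read from each library's deviation from its group mean. Across the populations of an antibody group, the 6 pairs sharing a number had correlations of 0.2744 to 0.5654, all above 0.1, while pairs of unlike number had -0.5266 to 0.2729. Numbers were thus taken to pair libraries, from the data and not from a stated animal, within an antibody and not across antibodies (-0.4058 to 0.07329). No replicates were copies: their chi-square, divided by its degrees of freedom, was 9.663 to 75.22.

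Named genes were Timd4, the 15 largest differences in each direction (called, a group mean of at least 10 CPM, antigen receptor segments and predicted models left out), up to 4 called members of each of 44 lists by smallest p, and 12 key genes. Of the 92 such genes called, 3 are not reported here. F10, Cfp, Abcg1, Pros1, Itgb5, Itga6, Itgb1, Itgb2, Cd44, Ctsd, Man2b1, Grn, Lgmn, Mmp13, Id2, Nfe2, Pfkfb3 and Hk1 complete the counts of their lists, and Sapcd2, Prelid3a and Gpat3 that of a pattern, and were named after their values were seen. The genes and the lists were chosen with earlier results of these data known. The alternatives tried were a replicate block, all 18 libraries in 1 fit, DESeq2 1.42.0, robust estimation, RLE factors, an unfiltered table, and the omission of each library or pair. The fit of the 6 libraries without a tumor with its alternatives, and the block combined with leaving out a pair, were added after the data had been seen. Promoters came from RefSeq on GRCm38.p6, and gene positions from the files, matching GENCODE M21 on mm10, with the last base past each annotated end removed.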

Additional observations from a re-analysis of the deposited data

Results flagged for a closer look

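The test of the difference between the antibody changes singled out 976 genes of the 15724 tested, and 89 named genes that passed it are given here with its difference (log2, antibody change in Tim-4low minus that in Tim-4high macrophages, 3 libraries a group). Among the largest positive differences it was 2.96 for Hhipl1, 2.92 for Pglyrp1, 2.61 for Rflnb, 2.58 for Strip2, 2.53 for Shank3, 2.44 for Gfod1, 2.42 for Sorcs2, 2.39 for Bcam, 2.39 for Proser2, 2.34 for Pi16, 2.26 for Kif7, 2.26 for F5, 2.17 for Pde10a, 2.16 for Adgre4 and 2.14 for Slco2a1. For other resident, adhesion and lysosome genes it was 1.37 for Rarb, 1.21 for Lbp, 0.96 for Laptm5, 0.89 for Naip1, 0.85 for Selplg, 1.02 for Gaa and 0.66 for Naglu. For other genes with a positive difference it was 4.07 for Ear6, 1.66 for Cd24a, 1.56 for Egr3, 1.04 for Tgtp1, 0.90 for C1ra, 0.83 for Wars, 0.49 for H2-Q7, 0.44 for Cd300lb, 0.40 for Elmo1, 0.37 for Cr1l and 0.29 for Scarb1. Among the largest negative differences it was -2.39 for Ccl8, -2.33 for B3gnt7, -2.28 for Cbr2, -2.23 for Timp1, -2.23 for Stab1, -2.13 for Mmp14, -2.08 for Ggta1, -2.06 for Pdcd1lg2, -2.03 for Aif1, -2.01 for Ltb4r1, -2.0 for Gpr141, -1.99 for Chst1, -1.97 for Ms4a4a and -1.97 for Flt1. For other genes of the Lyve1, Cd163 and Folr2 set it was -1.90 for Mrc1, -1.78 for Folr2, -1.75 for F13a1 and -1.33 for Maf. For other macrophage, monocyte and matrix genes it was -1.86 for F11r, -1.64 for S100a4, -1.55 for Plbd1, -1.53 for Cx3cr1, -1.34 for Tgfbi and -1.15 for Vcan. For Fc, complement and lipid genes it was -1.10 for Fcgr1, -0.81 for Fcgr2b, -0.64 for Fcgrt, -0.86 for C3ar1, -0.66 for C5ar1, -1.75 for Apoe, -1.58 for Trem2, -1.50 for Pltp and -1.68 for Anxa5. For chemokine, interferon and immune receptor genes it was -1.74 for Ccl12, -1.15 for Cxcl9, -0.84 for Cxcl16, -1.37 for Ifi44, -0.45 for Phf11b, -1.25 for Irf8, -0.56 for Irf5, -1.30 for Batf3, -0.79 for Cd40, -1.03 for Tlr1 and -0.41 for Acod1. For the remaining genes it was -1.48 for Cdh1, -1.31 for Ndrg1, -0.97 for Bnip3, -0.80 for Hif1a, -0.59 for Pfkp, -1.05 for Ctsc, -0.59 for Ctss, -0.56 for Prdx1, -0.55 for Azin1, -0.49 for Cycs, -0.42 for Pcna and -0.34 for Fosl2. Naip1, Tgtp1, Ear6, H2-Q7, Ms4a4a, Ccl12, Phf11b and the Fc receptor genes have close copies, and their counts are uncertain.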

How the results depend on the processing

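The count of 976 genes was 955 with RLE factors, 777 with no filter on low counts and 923 with robust estimation. It was 487 with all 18 libraries in the fit (461 of the 976), 1858 with DESeq2 (960 of the 976) and 3233 with the replicate block (all 976), and the cause was not tested. Without 1 library or 1 pair it was 0 to 2318, with 0 also without anti-Tim-4 pair 2 or isotype pair 1, where edgeR gave 3147 and 2722 genes an unadjusted p under 0.05. With the replicate block and without anti-Tim-4 pair 1, 2 or 3 it was 2046, 2517 and 2832, and without isotype pair 1, 2 or 3 it was 2269, 2305 and 3174. For anti-Tim-4 over isotype in Tim-4low macrophages the count of 140 was 54 with all 18 libraries, 576 with DESeq2 and 12 to 225 over the omissions. In Tim-4high macrophages the count of 2096 was 1324 with all 18 libraries and 46 to 2800 over the omissions. These 2 comparisons could have no replicate block, since each pair holds 1 antibody. For Tim-4low over Tim-4high the count of 457 with anti-Tim-4 was 231 with all 18 libraries, 1782 with the replicate block, 899 with DESeq2 and 28 to 705 over the omissions, and the count of 4833 with isotype was 2256 to 5072 over the omissions. Without a tumor the count of 2472 was 3923 with the replicate block, 4086 with all 18 libraries and 1074 to 2099 over the omissions. The difference of Timd4 turned, at -0.41 to 1.46 over the omissions, as did that of Cd274, at -0.15 to 0.081, and neither was called in the full fit. Of the 92 named genes called, 90 passed with RLE factors, 88 with no filter, 79 with robust estimation, 43 with all 18 libraries, 92 with the replicate block and 92 with DESeq2, and none turned. The replicate block changed the call of Gata6, Adgre1, Icam2, Lyve1, Cd163, Ccr2 and Mgl2 and of no other key gene. Where an omission left 2 libraries in a group, they were assumed to vary like the others. With 3 libraries a group, small differences of weakly expressed genes were not detectable.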
